A study of Mus musculus with 18 samples.

Results

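Bone-marrow-derived macrophages (BMDMs) that received Met while facing crystal-exposed tubular epithelial cells (TECs), the COM+Met group, were compared with BMDMs that faced the same crystal-exposed cells without Met, the COM group. All 6 COM+Met and all 6 COM samples of the series were used, 12 of 18 samples, and tests were run on the 10364 of 25926 genes in the expression table whose mean over these 12 samples reached 1 FPKM. FPKM is the number of sequenced fragments scaled to transcript length and to the mapped fragments of the library. The BMDMs came from C57BL/6J mice. M-CSF (50 ng/mL), the growth factor that drives marrow cells to become macrophages, was given for 7 days in RPMI containing 10% FBS, cells that did not attach were washed away, and the BMDMs then sat in the upper chamber of Transwell plates with 0.4 μm pores above TECs cultured from mouse kidney. In both groups the TECs received calcium oxalate monohydrate (COM, the main crystal of kidney stones) at 100 μg/mL for 24 h. The COM+Met macrophages also received Met at 5 mM for 24 h, and the sample labels give PBS to the COM macrophages. Met is used here as the labels write it. The remaining 6 samples, NC, were macrophages given PBS above TECs without crystals, and their values are shown beside some genes without a comparison. The membrane keeps the 2 cell layers apart, so by design the libraries are those of the macrophage layer. Markers of the TECs are given below. Neither the labels nor the methods say whether the 6 libraries per group had separate mice or cultures as their source. The p-values below set the difference between groups against the scatter between these libraries, and that scatter may be technical.

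Macrophages take up particles and debris, sense microbial and tissue-damage signals, and answer with cytokines. Interleukin-1β is made as a precursor whose transcript is induced by NF-κB signals and whose release needs an inflammasome, and calcium oxalate crystals are a known inflammasome trigger. Macrophages also carry lipid-handling programs, in which apolipoprotein E exports cholesterol and fatty-acid-binding proteins carry fatty acids inside the cell. Ly6C, encoded by neighbouring near-identical genes, marks inflammatory monocytes and is usually lost as they mature into macrophages, while the complement component C1q is a product of mature tissue macrophages.

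The COM samples were not uniform, and that sets how the comparison is read. Across the 10364 genes, log2(FPKM + 1) values correlated with Pearson's r of 0.992 to 0.993 within COM-1 to COM-3, and COM-4 with COM-5 reached 0.994, whereas COM-1 to COM-3 against COM-4 to COM-6 gave only 0.876 to 0.946. COM-6 stood apart from all other COM samples (r of 0.876 to 0.929). COM+Met samples were closer to COM-4 and COM-5 (0.975 to 0.980) than to COM-1 to COM-3 (0.942 to 0.946). Among COM+Met samples, COM+Met-1 (0.988 to 0.991 with the others) lay further out than COM+Met-2 to COM+Met-6 among themselves (0.993 to 0.995), and in 49 of the 74 genes described below it was the COM+Met sample nearest to the COM mean. The labels give no batch or date, so the COM samples were taken as COM-1 to COM-3 and COM-4 to COM-6, and a gene was said to hold when it passed the same test against all 6, against the first 3 and against the last 3, always in one direction. Those 3 fits share the COM+Met samples and are not independent of each other. These r values are across genes, which are not independent replicates. Summed FPKM ran from 430165 to 441308 in COM+Met and from 380731 to 449186 in COM, with the lowest sum in COM-6.

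The labelled cell type fitted its markers. All 12 macrophage markers were above the mean of 1 FPKM, with sums of 10718 to 14468 FPKM in COM and 12454 to 17208 in COM+Met. Lyz2 made up most of these sums (8531 to 11658 FPKM in COM and 9807 to 14541 in COM+Met). Adgre1 had 518 to 669 FPKM in COM and 493 to 634 in COM+Met. C1qa was low, at 0.306 to 2.21 FPKM in COM and 1.31 to 8.93 in COM+Met. None of the 18 tubular epithelial markers reached 1 FPKM, 9 were at 0 in all 12 samples, and their sum was at most 1.37 FPKM in COM and 0.332 in COM+Met. In NC the same 18 markers summed to 11.0 to 18.4 FPKM. The source of that signal was not tested, and it limits the NC values shown beside some genes. Markers of T, B and NK cells (11 found, none at 1 FPKM) summed to at most 1.89 FPKM. Of 6 mast cell and basophil markers only 1 passed the filter, and it was not called. Their sums were 1.61 to 5.02 FPKM in COM and 1.35 to 2.06 in COM+Met. The 4 endothelial markers, of which again only 1 was tested and not called, summed to 3.11 to 11.6 FPKM in COM and 4.97 to 7.47 in COM+Met. Below the filter, Pecam1 had 0.608 to 1.79 FPKM in COM and 0.0873 to 0.313 in COM+Met, while Cdh5 and Tek overlapped between the groups. The 5 erythroid genes summed to at most 1.44 FPKM.

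Against all 6 COM samples and against COM-1 to COM-3 more genes fell than rose with Met, and against COM-4 to COM-6 the balance depended on the fold limit. A gene was called when its adjusted p (limma, Benjamini-Hochberg over the 10364 genes) was below 0.05 and its change at least 2-fold on the log2(FPKM + 1) scale, which understates changes of low genes. Against all 6 COM samples 230 genes were called, 2.22% of those tested, of which 63 were higher (0.608%) and 167 lower (1.61%). Without the fold limit 598 genes (5.77%) were higher and 786 (7.58%) lower, and over all genes the median log2 fold change was 0.00. In 1157 genes, 11.2% of those tested, the 6 COM+Met values did not overlap with the 6 COM values, and 159 of the 230 called genes were among them. Against COM-1 to COM-3 the count was 762 (7.35%, with 236 or 2.28% higher and 526 or 5.08% lower), and against COM-4 to COM-6 it was 229 (2.21%, with 96 or 0.926% higher and 133 or 1.28% lower). At an adjusted p below 0.05 alone, 1867 genes were higher and 4487 lower against COM-1 to COM-3, while 1652 were higher and 825 lower against COM-4 to COM-6. The calls against COM-4 to COM-6 also turned to more rises than falls without COM-4 (291 higher, 178 lower) and without COM-5 (212 higher, 163 lower). The median of all genes was shifted by -0.13 against the first 3 and by 0.13 against the last 3, and each change against a subset is to be read against that shift. The direction of the calls moved with the scaling: with size factors 41.9% in place of 31.0% of the calls against COM-1 to COM-3 were higher (296 higher, 410 lower), and against COM-4 to COM-6 the share was 20.9% in place of 41.9% (55 higher, 208 lower). Quantile normalisation gave 41.6% (288 higher, 404 lower) and 25.5% (64 higher, 187 lower).

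In all, 74 genes held against both subsets, 0.714% of the genes tested: 24 were higher in COM+Met (0.232%) and 50 lower (0.482%). They made up 32.2% of the 230 calls, 38.1% of the higher and 29.9% of the lower ones, and 9.71% of the calls against COM-1 to COM-3 and 32.3% of those against COM-4 to COM-6. The groups did not overlap in 62 of them, and 6 of the 50 lower ones were gene models without an Ensembl identifier, which are not named here. With 3 other scalings 60 of the 74 held (15 higher, 45 lower). Leaving out each sample in turn, 47 held in all 12 repeats, 10 of them higher (Eno2, Arfgef3, Itgb3, Fstl1, Vegfb, Fabp5, Mgll, Ankrd24, Hist1h2bg and Arhgap22) and 37 lower. Without COM-6 the count was again 74, but only 54 were shared and 12 of the 24 rises no longer held. Without COM+Met-1 it was 93 (21 higher, 72 lower), 67 of them shared. With both left out 88 held (14 higher, 74 lower), of which 58 were shared. The limit mattered at its edge: Tspan13, Traf4 and Fabp3 lay just inside it, with the smaller of their 2 subset changes at 1.00, 1.01 and 1.01 log2 units, and Car2, Adam8 and Evi2 just outside, at 1.00, 1.00 and 0.99.

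**Figure D1:**
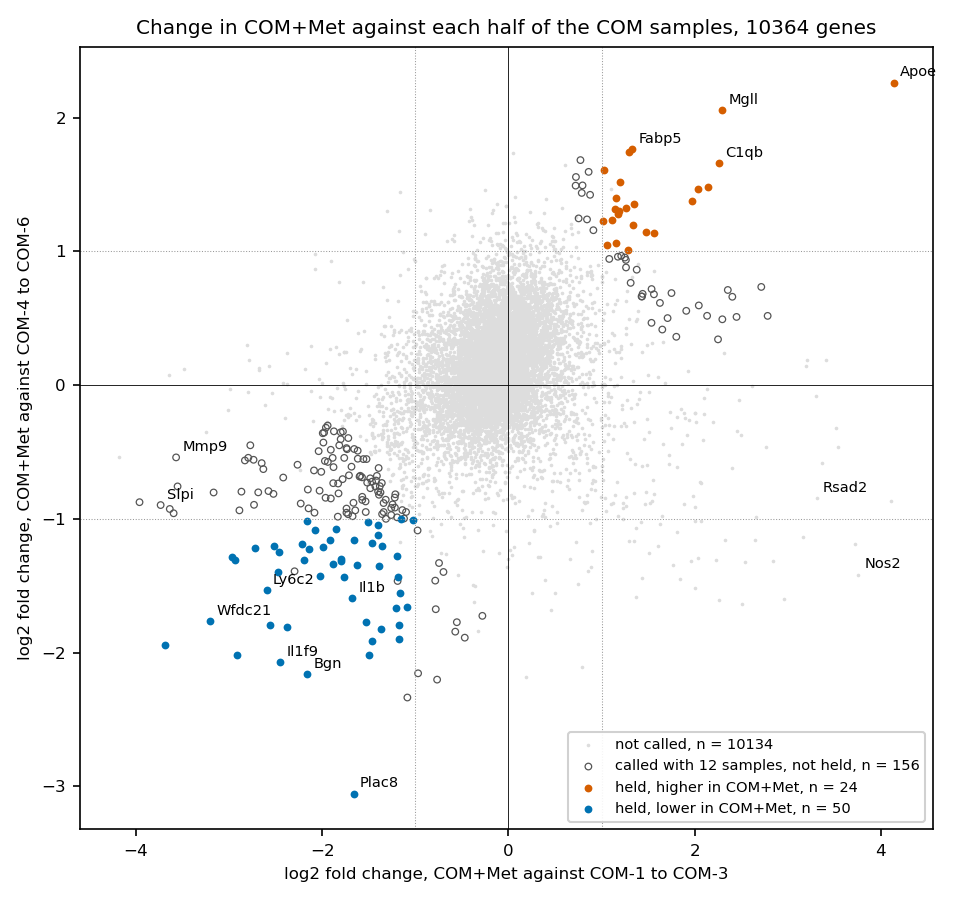
Log2 fold change of COM+Met against COM-1 to COM-3 (x axis) and against COM-4 to COM-6 (y axis) for 10364 genes, with dotted lines at 2-fold. Filled points are the 24 higher and 50 lower genes that held, open circles the 156 calls that did not, and grey points the genes that were not called.

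Several interleukin-1 family genes were lower with Met. Of 10 tested members of a list of interleukin-1 ligands and receptors 5 were called, all lower, and 3 held. The median log2 fold change of the list was -0.79 beside 0.00 for all genes. Of all genes tested 1.61% were called lower and 0.482% held lower, while 0.608% were called higher and 0.232% held higher. These shares are to be set beside each list or marker count below. The lists were written with earlier results of these data known, so such counts are a description and no test. Sample values are given below as the lowest, the median and the highest of a group, or as the single values of COM-1 to COM-3 and of COM-4 to COM-6 in that order. Il1b, the interleukin-1β precursor, had values of 455, 548 and 609 FPKM in COM and of 158, 171 and 184 in COM+Met. The groups were far apart, and the COM+Met values were within a narrow band (170.2 ± 9.25, mean ± SD, n = 6, against 535 ± 67.8 in COM). The fall was 3.14-fold in mean FPKM (log2 fold change -1.64 ± 0.10 (SE), adjusted p = 5.61e-06), with nearly the same size against the 2 subsets (-1.68 against COM-1 to COM-3 and -1.59 against COM-4 to COM-6). Without crystals, NC samples had 4.18, 89.8 and 209 FPKM. In bulk RNA, fewer cells that express a gene and less RNA per cell cannot be told apart, here or for any gene below.

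Il1f9, which encodes interleukin-36γ, a relative that acts on epithelial and immune cells, had 89.2, 126 and 146 FPKM in COM and 16.1, 21.8 and 59.3 in COM+Met (log2 fold change -2.26 ± 0.27 (SE), adjusted p = 0.000283). Every COM+Met value lay below every COM value, and the highest, in COM+Met-1, was well above the other 5. Without that sample the log2 fold change was -2.52, and against the subsets it was -2.45 against COM-1 to COM-3 and -2.07 against COM-4 to COM-6 with it. Il1r2, the decoy receptor that binds interleukin-1 without signalling, had 4.21, 6.52 and 9.43 FPKM in COM and 1.16, 1.69 and 2.94 in COM+Met (log2 fold change -1.44 ± 0.18 (SE), adjusted p = 0.000356) and also held. Il1r1, the signalling receptor, was called against all 6 samples (log2 fold change -1.09 ± 0.16 (SE), adjusted p = 0.00103) and lost the fold limit against COM-4 to COM-6 (-0.76), and it was not called once COM-3 was left out. Il1rn, the receptor antagonist, was called lower just past 2-fold (adjusted p = 0.0470) and did not hold, losing its call when any of COM-4 to COM-6 or any COM+Met sample was left out. Il1a was not called (-0.03, adjusted p = 0.963).

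**Figure D2:**
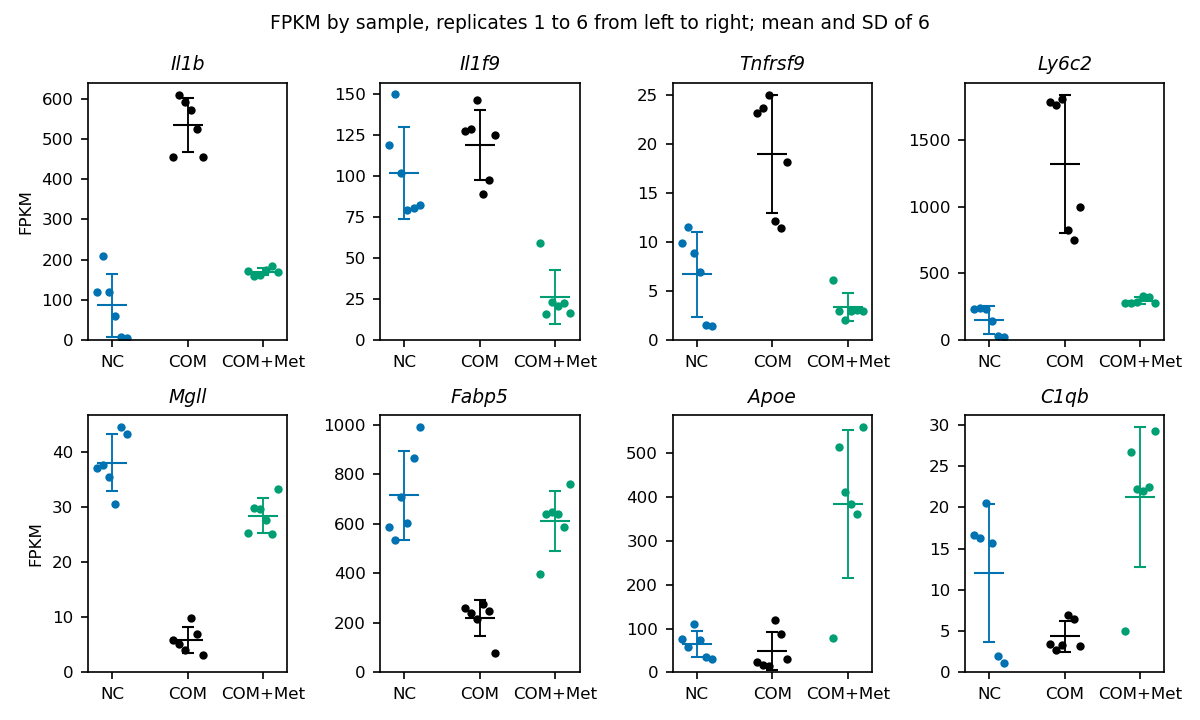
FPKM of 8 genes in every sample of NC, COM and COM+Met (y axes linear, from 0), with the mean and SD of 6 samples. The COM+Met values of Il1b (158 to 184 FPKM), Il1f9, Tnfrsf9 and Ly6c2 lie below all COM values, those of Mgll and Fabp5 above, and in Apoe and C1qb COM+Met-1 falls inside or near the COM range.

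Ms4a and Ly6 membrane proteins, among them markers of inflammatory monocytes, made up another group of falls. In a list of Ms4a and Ly6 membrane proteins 5 of 12 tested members were called, all lower, and 4 held (median -0.48). Of all genes 1.61% were called lower and 0.482% held lower. Ly6c2 had 747, 1379.8 and 1809 FPKM in COM and 275, 282 and 330.1 in COM+Met, with COM-1 to COM-3 near 1785 and COM-4 to COM-6 at 827, 747 and 998. No value overlapped, and the fall against the first 3 (-2.60) was larger than against the last 3 (-1.53). Ly6c1 had 44.4, 71.8 and 89.2 FPKM in COM and 11.6, 14.4 and 24.0 in COM+Met (log2 fold change -2.09 ± 0.19 (SE), adjusted p = 5.19e-05). Ly6i went from 801, 939 and 1023 to 316, 367 and 572 FPKM and was the highest in COM+Met-1. Ms4a4a, a membrane protein of macrophages, went from 47.5, 66.1 and 77.1 to 18.3, 20.0 and 22.7 FPKM (log2 fold change -1.59 ± 0.12 (SE), adjusted p = 1.48e-05). Ly6c1, Ly6c2 and Ly6i are close copies, so reads may have been split between them and their separate values are uncertain.

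Some C-type lectins and TREM receptors of myeloid cells fell as well. In a list of myeloid C-type lectins and TREM receptors 4 of 17 tested members were called, all lower, and 3 held (median -0.67). The shares of all genes were 1.61% called lower and 0.482% held lower. Trem1, which amplifies Toll-like receptor signals, had 7.23, 11.1 and 17.3 FPKM in COM and 2.55, 2.97 and 3.73 in COM+Met (log2 fold change -1.58 ± 0.21 (SE), adjusted p = 0.000562). Treml4, a TREM relative, had 17.5, 33.1 and 47.6 FPKM in COM and 6.95, 8.78 and 12.2 in COM+Met, and Clec4a2, an inhibitory C-type lectin, 17.0, 40.5 and 63.8 FPKM in COM and 5.65, 7.12 and 8.34 in COM+Met. For all 3 genes the groups did not overlap, and the subset changes were -2.08 against COM-1 to COM-3 and -1.09 against COM-4 to COM-6 for Trem1. Cd300e, an activating receptor of monocytes, fell from 21.4, 25.2 and 29.8 to 6.34, 7.66 and 9.83 FPKM with close subset values (-1.76 and -1.43). Sirpb1c, Sirpb1a and Gm5150, of the SIRP-β family of activating receptors, were lower by 3.20-, 2.70- and 7.68-fold in mean FPKM. Gm5150 had 3.19, 4.32 and 5.97 FPKM in COM and 0.322, 0.572 and 0.788 in COM+Met, so that it was below 1 FPKM in all COM+Met samples. These 3 genes are near-identical copies and share the same doubt about split reads, and Sirpb1a held with only 1 of the 3 other scalings. Siglec1, a sialic-acid-binding adhesion receptor of macrophages, was called lower (log2 fold change -1.05 ± 0.19 (SE), adjusted p = 0.00366) and did not hold (-0.70 against COM-1 to COM-3), and it was not called without COM-4 or without COM-5.

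Neutrophil markers moved with these falls. Of 17 such genes 6 reached 1 FPKM, and 5 of the 6 were called lower, beside 1.61% of all genes. None of them held, and 4 of the 17 were at 0 in all 12 samples. The 17 genes summed to 652 to 677 FPKM in COM-1 to COM-3, 222 to 266 in COM-4 to COM-6 and 108 to 171 in COM+Met. S100a8, a calcium-binding protein abundant in neutrophils and monocytes, had 298, 276 and 301 FPKM in COM-1 to COM-3, 51.9, 56.4 and 28.4 in COM-4 to COM-6 and 15.3, 21.5 and 39.6 in COM+Met. The part of such cells in the falls above was not tested. The 8 dendritic cell markers had no call among the 5 tested, with sums of 358 to 388 FPKM in COM-1 to COM-3, 112 to 123 in COM-4 to COM-6 and 111 to 146 in COM+Met.

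Tnfrsf9, Il2ra, Stat4, Cd247 and Plac8 were further genes that held lower. Tnfrsf9, the costimulatory receptor 4-1BB, had 11.5, 20.6 and 25.0 FPKM in COM and 2.09, 2.98 and 6.12 in COM+Met (log2 fold change -2.18 ± 0.23 (SE), adjusted p = 0.000139), a fall of 5.61-fold in mean FPKM without overlap. Its ligand-family relative Tnfsf4, or OX40 ligand, was called (log2 fold change -1.35 ± 0.22 (SE), adjusted p = 0.00204) and missed the fold limit against COM-4 to COM-6 (-0.95). Il2ra, the high-affinity interleukin-2 receptor chain, had 3.74, 5.38 and 12.5 FPKM in COM and 1.18, 2.08 and 2.51 in COM+Met, and Stat4, a transducer of interleukin-12 signals, had 4.41, 8.80 and 12.8 in COM and 2.19, 2.87 and 3.49 in COM+Met. Both held, and neither did so without COM-6, where the changes against COM-4 and COM-5 were -0.82 and -0.75. Cd247, the T-cell receptor ζ chain, which also pairs with Fc receptors, fell from 7.62, 21.0 and 35.9 to 2.98, 3.72 and 8.75 FPKM. Plac8, a small cysteine-rich protein of myeloid cells, fell from 3.87, 6.97 and 20.6 to 0.490, 0.733 and 0.908 FPKM, and here the fall was larger against COM-4 to COM-6 (-3.05) than against COM-1 to COM-3 (-1.66). Tnfrsf9 was among the 2 lower and 2 higher calls of 22 tested TNF ligands and receptors (median -0.02), and the only one of the 4 that held. In a list of costimulatory and checkpoint ligands 1 of 15 tested members was called, Slamf8, and it was higher (median -0.04).

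Secreted and acute-phase proteins included some of the largest falls. Wfdc21, a whey-acidic-protein-domain gene, had 215, 236 and 246 FPKM in COM-1 to COM-3, 94.1, 112 and 57.7 in COM-4 to COM-6 and 21.9, 23.8 and 28.1 in COM+Met (log2 fold change -2.49 ± 0.32 (SE), adjusted p = 0.000418). Hp, or haptoglobin, which binds free haemoglobin, had 335, 703 and 783 FPKM in COM and 193, 217 and 235 in COM+Met (log2 fold change -1.55 ± 0.18 (SE), adjusted p = 0.000283), with its lowest COM value in COM-6. Serpinb2, an inhibitor of plasminogen activators, fell from 48.0, 92.5 and 143 to 18.6, 22.5 and 33.3 FPKM, and Plat, a plasminogen activator, from 4.18, 5.00 and 6.85 to 1.08, 1.63 and 3.11. In neither gene did the groups overlap, and Plat did not hold without COM+Met-3. Serpinb9b, a serpin, went from 1.97, 3.74 and 4.86 to 0.271, 0.456 and 1.04 FPKM, and Chil1, a chitinase-like glycoprotein, from 3.87, 8.29 and 12.3 to 0.920, 1.16 and 1.92. In the acute-phase list 3 of 11 tested members were lower and 1 higher. The higher one, Ptx3, a soluble pattern-recognition protein, had 4.32, 5.08 and 7.49 FPKM in COM and 7.92, 12.9 and 17.4 in COM+Met (log2 fold change 1.07 ± 0.17 (SE), adjusted p = 0.00159), missed the fold limit against COM-4 to COM-6 (0.96) and was not called without COM+Met-5.

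Other genes that held lower had mixed roles. U90926, a long non-coding transcript, had 35.2, 48.2 and 61.8 FPKM in COM and 10.6, 12.5 and 23.4 in COM+Met. Adgb, androglobin, had 24.2, 27.5 and 46.9 FPKM in COM and 7.72, 8.44 and 9.59 in COM+Met, against 1.23, 1.82 and 2.75 in NC. Ctla2b, a protease-inhibitor-like gene, fell from 40.0, 114 and 169.9 to 18.5, 20.2 and 25.9 FPKM, and Txnip, an inhibitor of thioredoxin and of glucose uptake, from 57.8, 73.8 and 76.6 to 21.8, 24.1 and 26.1 (log2 fold change -1.49 ± 0.10 (SE), adjusted p = 5.69e-06). Txnip had a small spread in both groups, and its changes against the subsets were -1.63 and -1.35. Emp1, an epithelial membrane protein, Scin, an actin-severing protein, and Lsp1, an actin-binding leukocyte protein, were lower by 6.72-, 5.80- and 3.23-fold. Lsp1 lost the fold limit against COM-4 and COM-5 once COM-6 was left out (-0.99), and it also did not hold without COM+Met-3. Akr1b8 and Adh7, which encode an aldo-keto reductase and an alcohol dehydrogenase, went from 8.63, 14.9 and 21.2 to 3.59, 4.47 and 5.95 and from 2.0, 2.75 and 4.06 to 0.272, 0.592 and 0.981 FPKM. Adh7 did not hold without COM-4 or COM+Met-3. Gpr55, a lysophospholipid receptor, fell from 5.16, 6.28 and 6.53 to 1.27, 1.57 and 2.47 FPKM with nearly equal subset changes (-1.39 and -1.35), and Net1, an exchange factor for RhoA, from 10.2, 18.3 and 19.0 to 3.29, 4.43 and 7.23. Ifitm1, a membrane protein that limits viral entry, went from 33.1, 50.2 and 54.3 to 13.1, 16.3 and 34.7 FPKM, with COM+Met-1 inside the COM range.

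Matrix genes of stromal cells were low and spread widely. Bgn (biglycan) had 11.9, 3.74 and 1.59 FPKM in COM-1 to COM-3, 0.928, 4.18 and 14.8 in COM-4 to COM-6 and 0, 0.0322 and 1.67 in COM+Met (log2 fold change -2.16 ± 0.49 (SE), adjusted p = 0.0119). Col1a2, a collagen I chain, had 0.452, 3.03 and 13.5 FPKM in COM and 0, 0.00723 and 1.15 in COM+Met, and Dcn (decorin) 0.680, 1.71 and 6.52 in COM and 0, 0.0545 and 0.561 in COM+Met. Nearly all of the COM+Met values were close to 0, and in these 3 genes COM+Met-1 was the highest. Bgn and Col1a2 no longer held when COM-5 or any of COM+Met-2 to COM+Met-6 was left out (Col1a2 also without COM-6), and Dcn was lost without COM-1 and without COM-6. The 9 stromal markers, 5 of them tested and 3 called lower, summed to 6.91 to 44.2 FPKM in COM and 4.07 to 9.47 in COM+Met. The part of stromal cells in these falls was not tested. Car4, a carbonic anhydrase, and Clu, clusterin, no longer held without COM-5 or any of COM+Met-2 to COM+Met-6 (Clu also without COM-6), and in both the COM+Met-1 value (7.31 and 7.45 FPKM) lay within the COM range. Traf4 and Tspan13, at the edge of the limit, had 1.53, 1.65 and 2.18 and 3.70, 5.30 and 7.77 FPKM in COM and 0.125, 0.362 and 0.729 and 1.29, 1.96 and 2.39 in COM+Met. The call of Traf4 against all 6 COM samples was lost without COM-1, COM-6, COM+Met-2 or COM+Met-4, and that of Tspan13 without COM-6. Traf4 also did not hold without COM+Met-5, nor Tspan13 without COM+Met-1 or COM+Met-3. With the 3 other scalings Traf4 held in only 1.

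Lipid-handling genes were among the rises. Of 35 tested members of a list of lipid handling and cholesterol efflux 4 were higher, and all 4 held, while 1 was lower (median 0.05). Of all genes 0.608% were called higher, 0.232% held higher and 1.61% were called lower. Mgll, monoacylglycerol lipase, which frees fatty acids from monoglycerides, had 3.11, 5.51 and 9.80 FPKM in COM and 25.1, 28.6 and 33.3 in COM+Met (log2 fold change 2.17 ± 0.19 (SE), adjusted p = 4.29e-05). The groups were well apart, the mean rose 4.89-fold, and the COM+Met values were near those of NC (30.5, 37.3 and 44.6). Fabp5, a fatty-acid-binding protein of macrophages, had 80.1, 243 and 276 FPKM in COM and 397, 639 and 761 in COM+Met (log2 fold change 1.55 ± 0.28 (SE), adjusted p = 0.00343), with COM-6 far below the other COM samples. Without COM-6 its log2 fold change was 1.28, and it held. Fabp3, another member of that family, had 21.2, 34.2 and 60.7 FPKM in COM and 72.2, 82.0 and 106 in COM+Met and lay at the edge of the limit. It did not hold without COM-6 (0.54 against COM-4 and COM-5), nor when any COM+Met sample was left out, nor with any of the 3 other scalings. The member that fell, Dgat2, makes triglycerides (-1.04, adjusted p = 0.00187) and did not hold, and its call was lost without COM-2, COM-4 or COM+Met-3. Abca1 and Abcg1, the cholesterol exporters, were not called (-0.10 and -0.33).

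Apoe had the highest log2 fold change of all genes that held (log2 fold change 3.20 ± 0.59 (SE), adjusted p = 0.00399), and it depended on single samples. The COM values were 23.0, 16 and 15.1 FPKM in COM-1 to COM-3 and 119, 86.9 and 29.9 in COM-4 to COM-6, and the 6 COM+Met values had a lowest of 78.0, a median of 397 and a highest of 558. The lowest, in COM+Met-1, was below COM-4 and COM-5, and the other 5 were above every COM sample. Without COM+Met-1 the log2 fold change of Apoe was 3.61 and it held, whereas it did not hold without COM-6 or any of COM+Met-2 to COM+Met-6. The 3 chains of C1q had a like pattern. C1qb had 2.77, 3.37 and 6.98 FPKM in COM and 5.08, 22.4 and 29.2 in COM+Met (log2 fold change 1.96 ± 0.36 (SE), adjusted p = 0.00384), C1qa 0.306, 0.884 and 2.21 in COM and 1.31, 7.69 and 8.93 in COM+Met, and C1qc 1.15, 1.72 and 3.05 in COM and 2.40, 9.75 and 14.5 in COM+Met. In all 3 the lowest COM+Met value was that of COM+Met-1 and lay within the COM range. Without COM+Met-1 the change of C1qb was 2.31. The 3 genes held then, and not without COM-5 or any of COM+Met-2 to COM+Met-6 (C1qa and C1qb also not without COM-6). They were the called genes among 16 tested Fc receptors and complement genes (median -0.09, and below 0 also under the 3 other scalings).

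Fstl1, Vegfb, Itgb3, Pkdcc and Gdf15 also held higher. Fstl1, a secreted follistatin-like glycoprotein, had 10.1, 16.8 and 22.5 FPKM in COM and 33.1, 55.5 and 61.6 in COM+Met (log2 fold change 1.67 ± 0.20 (SE), adjusted p = 0.000282). Vegfb, a growth factor linked to fatty-acid uptake, had 2.88, 3.46 and 3.89 FPKM in COM and 7.42, 9.28 and 11.1 in COM+Met (log2 fold change 1.23 ± 0.10 (SE), adjusted p = 1.86e-05), with the COM samples close together and subset changes of 1.18 and 1.28. Itgb3, the integrin β3 chain used by osteoclasts and macrophages, had 1.29, 2.43 and 3.10 FPKM in COM and 6.57, 7.37 and 8.25 in COM+Met (log2 fold change 1.36 ± 0.13 (SE), adjusted p = 5.66e-05). Among 13 tested integrin subunits Itgb3 was the 1 rise and Itga4 the 1 fall (median -0.30). Neither Fstl1, Vegfb nor Itgb3 overlapped between the groups, and all 3 held whichever sample was left out. Pkdcc, a secreted tyrosine kinase, had 1.59, 2.75 and 5.19 FPKM in COM and 7.65, 8.77 and 10.6 in COM+Met and did not hold without COM-6 (0.75 against COM-4 and COM-5). Gdf15, a stress-induced cytokine of the TGF-β family, had 2.89, 5.59 and 11.7 FPKM in COM and 12.6, 17.4 and 22.9 in COM+Met (log2 fold change 1.35 ± 0.26 (SE), adjusted p = 0.00559) and held neither without COM-6 nor when any COM+Met sample was left out. Gdf15 held with only 1 of the 3 other scalings.

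The remaining rises had mixed roles. Slc2a6, a glucose transporter induced in inflammatory macrophages, had 104, 114 and 111 FPKM in COM-1 to COM-3, 194, 185 and 48.7 in COM-4 to COM-6 and 268, 274 and 305 in COM+Met. All COM+Met values were higher, but the change against COM-4 and COM-5 alone was 0.55, and Slc2a6 did not hold without COM-6 or with any COM+Met sample left out. Eno2, an enolase of glycolysis, had 0.580, 1.5 and 2.43 FPKM in COM and 4.29, 4.56 and 5.59 in COM+Met (log2 fold change 1.25 ± 0.16 (SE), adjusted p = 0.000466) and was the single call among 33 tested glycolysis and HIF genes (median -0.23). Ckb, the brain-type creatine kinase, went from 3.89, 9.70 and 12.5 to 14.1, 21.6 and 23.8 FPKM, and Dpp7, a lysosomal dipeptidyl peptidase, from 5.71, 13.8 and 18 to 29.0, 31.4 and 34.3. Both were lost without COM-6, the lowest COM sample in each, and Ckb also without COM-2, COM-3, COM+Met-2, COM+Met-3 or COM+Met-6. Ndufa12, a complex I subunit, and Sco2, a copper chaperone of complex IV, held in 3 and 6 of the 12 repeats, both losing it without COM-6 among others, and Ndufa12 was the single call of 71 tested respiratory chain subunits (median 0.23). Both genes held with only 1 of the 3 other scalings. Arhgap22, a Rac GTPase-activating protein, had 1.37, 2.53 and 3.33 FPKM in COM and 6.49, 6.85 and 12.2 in COM+Met, with its highest value in COM+Met-1. It held without either outlying sample and not without both. Ankrd24, an ankyrin-repeat gene, had 6.38, 11.4 and 12.1 FPKM in COM and 23.6, 26.7 and 30.2 in COM+Met, Arfgef3, of the ARF exchange-factor family, 0.391, 0.546 and 0.619 in COM and 2.15, 2.42 and 2.71 in COM+Met, and Lzts2, a leucine-zipper protein, 0.565, 2.24 and 3.54 in COM and 5.48, 6.80 and 7.20 in COM+Met. Lzts2 did not hold without COM-6. Hist1h2bg, a histone H2B gene, had 1.93, 4.43 and 6.86 FPKM in COM and 11.2, 14.6 and 16.3 in COM+Met. Other histone genes are near-identical to it, which makes its own value uncertain.

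**Figure D3:**
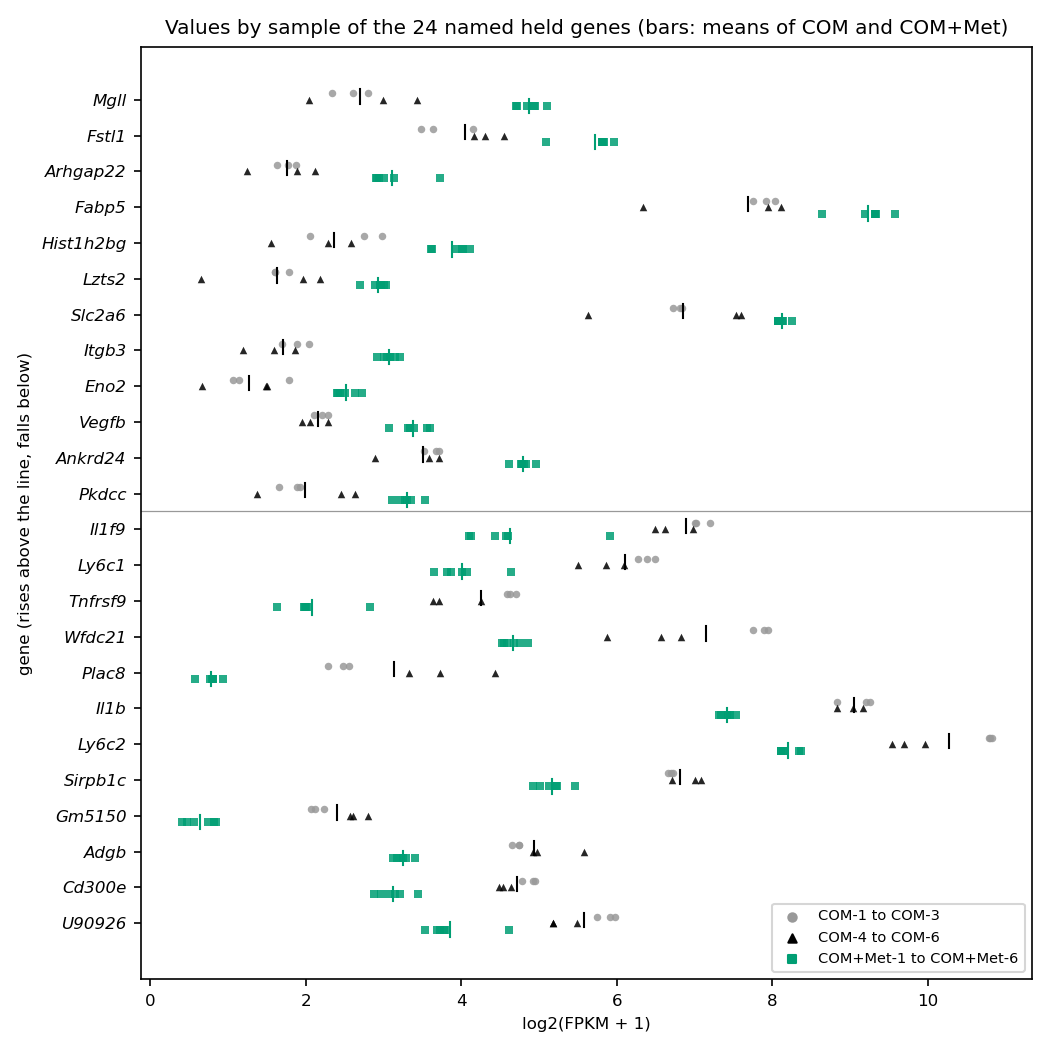
log2(FPKM + 1) in each sample (x axis) of the 12 rises and 12 falls that held without overlap and had the largest smaller subset change (y axis). Circles are COM-1 to COM-3, triangles COM-4 to COM-6, squares COM+Met, and bars the group means, and all squares lie on one side of the COM samples in every row.

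Promoters are shown for the first 3 rises and the first 3 falls of this ranking that have one in the RefSeq table (GRCm38.p6), so that genes that moved together can be set side by side. Each is the 250 bases before the start site, 5′ to 3′ on the gene's strand, and capitals mark matches to 8 short motifs searched on both strands. Mgll lies at chr6:88724162-88724411 (plus strand), Fstl1 at chr16:37776805-37777054 (plus), Arhgap22 at chr14:33216573-33216822 (plus), Il1f9 at chr2:24186226-24186475 (plus), Ly6c1 at chr15:75048838-75049087 (minus) and Tnfrsf9 at chr4:150919905-150920154 (plus).
Mgll: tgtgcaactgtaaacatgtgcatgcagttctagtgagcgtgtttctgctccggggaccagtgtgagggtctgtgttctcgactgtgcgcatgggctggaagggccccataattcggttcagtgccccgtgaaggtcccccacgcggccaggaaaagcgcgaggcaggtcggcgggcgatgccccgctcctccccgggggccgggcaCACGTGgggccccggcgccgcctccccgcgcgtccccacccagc
Fstl1: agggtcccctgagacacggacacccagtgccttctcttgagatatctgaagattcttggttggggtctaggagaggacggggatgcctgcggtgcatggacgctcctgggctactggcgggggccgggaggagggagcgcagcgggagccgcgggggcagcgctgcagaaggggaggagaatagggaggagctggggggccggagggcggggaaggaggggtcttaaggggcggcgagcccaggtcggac
Arhgap22: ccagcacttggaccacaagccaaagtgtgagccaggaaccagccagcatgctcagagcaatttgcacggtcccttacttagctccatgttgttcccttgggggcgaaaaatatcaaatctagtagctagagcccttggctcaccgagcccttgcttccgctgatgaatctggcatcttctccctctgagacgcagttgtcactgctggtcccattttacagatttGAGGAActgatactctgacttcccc
Il1f9: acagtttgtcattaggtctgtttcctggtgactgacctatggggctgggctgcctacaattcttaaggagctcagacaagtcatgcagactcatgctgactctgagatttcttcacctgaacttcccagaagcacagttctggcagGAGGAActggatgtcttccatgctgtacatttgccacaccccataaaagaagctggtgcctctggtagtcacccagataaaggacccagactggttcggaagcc
Ly6c1: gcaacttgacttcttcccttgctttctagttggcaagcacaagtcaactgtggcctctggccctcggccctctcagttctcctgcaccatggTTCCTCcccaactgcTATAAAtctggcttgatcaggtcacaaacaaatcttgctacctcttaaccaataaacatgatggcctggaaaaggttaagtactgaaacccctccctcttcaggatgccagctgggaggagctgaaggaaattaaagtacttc
Tnfrsf9: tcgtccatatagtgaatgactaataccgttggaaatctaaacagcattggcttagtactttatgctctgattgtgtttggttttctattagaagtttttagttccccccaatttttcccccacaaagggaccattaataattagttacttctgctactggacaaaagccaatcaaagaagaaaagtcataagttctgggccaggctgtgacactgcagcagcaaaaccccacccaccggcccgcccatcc

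The Mgll and Fstl1 windows were GC-rich (68% each) beside a median of 52.4% over all promoters, Tnfrsf9 had 43.2%, and the others 48.4% to 51.6%. The capitals in Mgll are an E-box, CACGTG, 44 bases before the start site. Those in Arhgap22 and Il1f9 are the PU.1 core GAGGAA, 25 and 104 bases before it. Ly6c1 has the same core on the other strand at 158 bases and the TATA box TATAAA at 143 bases, and Fstl1 and Tnfrsf9 had no match. PU.1 is the main transcription factor of the myeloid lineage, and its core stood in 23.3% of 32851 promoters of this length, the E-box in 6.02% and the TATA box in 12.4%. The other motifs were NF-κB (GGGANTTTC, 0.941%), then AP-1 (TGANTCA, 6.75%), then C/EBP (TTGCNNAA, 9.56%), then the interferon-stimulated response element (GAAANNGAA, 7.13%) and the C/EBP-ATF element (TGATGNAA, 3.45%). Of the genes with a promoter in the table, 9 of 20 held rises and 10 of 37 held falls had the PU.1 core, beside 2090 of 7975 genes tested. NF-κB letters stood in 0 held rises and 1 held fall, beside 80 of the 7975, and AP-1 letters in 0 and 5, beside 444. C/EBP letters stood in 0 and 4 (beside 741), and the interferon-stimulated response element in 2 and 5 (beside 633). For the C/EBP-ATF element it was 2 and 0 (beside 193), for the E-box 3 and 2 (beside 835) and for the TATA box 3 and 6 (beside 596). A match is a description of letters and not a binding site.

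Most calls did not hold. Of the 230, 133 passed only against COM-1 to COM-3 (29 higher, 104 lower) and 23 only against COM-4 to COM-6 (10 higher, 13 lower). Among the former were falls with very large values in COM-1 to COM-3. Mmp9, gelatinase B, had 61.1, 56.3 and 59.2 FPKM in COM-1 to COM-3, 7.01, 6.22 and 5.80 in COM-4 to COM-6 and 3.62, 4.02 and 4.66 in COM+Met (-3.57 against COM-1 to COM-3 and -0.54 against COM-4 to COM-6). Slpi, a leukocyte protease inhibitor, had 1794, 2017 and 2186 FPKM, then 445, 425 and 113, and 113, 138 and 282 in COM+Met. In both, COM-4 to COM-6 were closer to the COM+Met samples than to COM-1 to COM-3. The call of Mmp9 against all 6 was lost when any of COM-1 to COM-3 or any COM+Met sample was left out, and that of Slpi in the same way except for COM+Met-1. Ltb4r1, the leukotriene B4 receptor, Cyp1b1, a cytochrome P450, and Plet1 had changes of -3.17, -3.60 and -3.96 against COM-1 to COM-3 and of -0.80, -0.96 and -0.88 against COM-4 to COM-6. The call of Plet1 was lost when any of COM-1 to COM-3 or COM+Met-2 to COM+Met-6 was left out. The chemokines Cxcl3 and Ccl9, the 2 calls among 21 chemokine ligands, fell by 2.63 and 1.83 on the log2 scale against the first 3, and had -0.63 and -0.81 against the last 3. Cxcl3 was called in 4 of the 12 repeats that left out 1 sample.

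Rises that did not hold included Tnf, the tumour necrosis factor gene. It had 94.4, 93.8 and 89.4 FPKM in COM-1 to COM-3, 328, 348 and 204 in COM-4 to COM-6 and 363, 415 and 455 in COM+Met (log2 fold change 1.33 ± 0.34 (SE), adjusted p = 0.0226). All COM+Met values were the higher ones, yet the change against COM-4 to COM-6 was 0.52 (adjusted p = 0.0423), and without COM-2 the call was lost. Csf1, the gene for M-CSF, had 15.7, 14.7 and 14 and 46.3, 51.4 and 47.7 FPKM in the subsets and 63.5, 75.8 and 122 in COM+Met (2.36 against COM-1 to COM-3 and 0.71 against COM-4 to COM-6). Slamf8, a membrane protein of the SLAM family, and Gpnmb, a glycoprotein of lysosomes and endosomes, had 2.72 against COM-1 to COM-3 and 0.73 against COM-4 to COM-6, and 1.43 against COM-1 to COM-3 and 0.66 against COM-4 to COM-6. Ccrl2, a chemerin-binding receptor, and Cd40 had 0.36 and 0.47 against COM-4 to COM-6. Ccrl2 and Cd40 lost their calls when any of COM-1 to COM-3 or any COM+Met sample was left out, Cd40 also without COM-6, and Gpnmb lost its call when any of COM-1 to COM-3 was left out.

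For 30 genes the calls against the 2 subsets had opposite signs, 28 of them higher against COM-1 to COM-3 and lower against COM-4 to COM-6. Nos2, the inducible nitric oxide synthase, had 4.67, 5.20 and 4.42 FPKM in COM-1 to COM-3, 259.9, 201 and 170.2 in COM-4 to COM-6 and 67.1, 76.0 and 89.1 in COM+Met (3.76 against COM-1 to COM-3 and -1.42 against COM-4 to COM-6). COM+Met lay between the subsets, so the value against all 6 (1.17, adjusted p = 0.489) described neither. The same was seen for Ccl7, a monocyte chemokine, and for Tgtp1, Ifit1bl1 and Ifi206, interferon-induced genes, all 4 chosen after their values were seen. Ifit1bl1 had 16.7, 20.6 and 18 FPKM, then 423, 435 and 522, and 134, 154 and 160.2 in COM+Met. Of 51 tested genes of an interferon response list none was called against all 6 (limma, with 1 at an adjusted p and 8 at an unadjusted p below 0.05, all higher). In the fit against COM-1 to COM-3, 26 were called higher, beside 2.28% of all genes. In the fit against COM-4 to COM-6, 5 were called lower, beside 1.28% of all genes. The list medians in these 2 fits were 1.07 and -0.39. Rsad2, an antiviral enzyme also called viperin, had 3.31 against COM-1 to COM-3 and -0.85 against COM-4 to COM-6, and Gbp5, a guanylate-binding protein, 2.47 against COM-1 to COM-3 and -0.11 against COM-4 to COM-6. For these genes the direction of the difference depended on which COM samples were used.

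**Figure D4:**
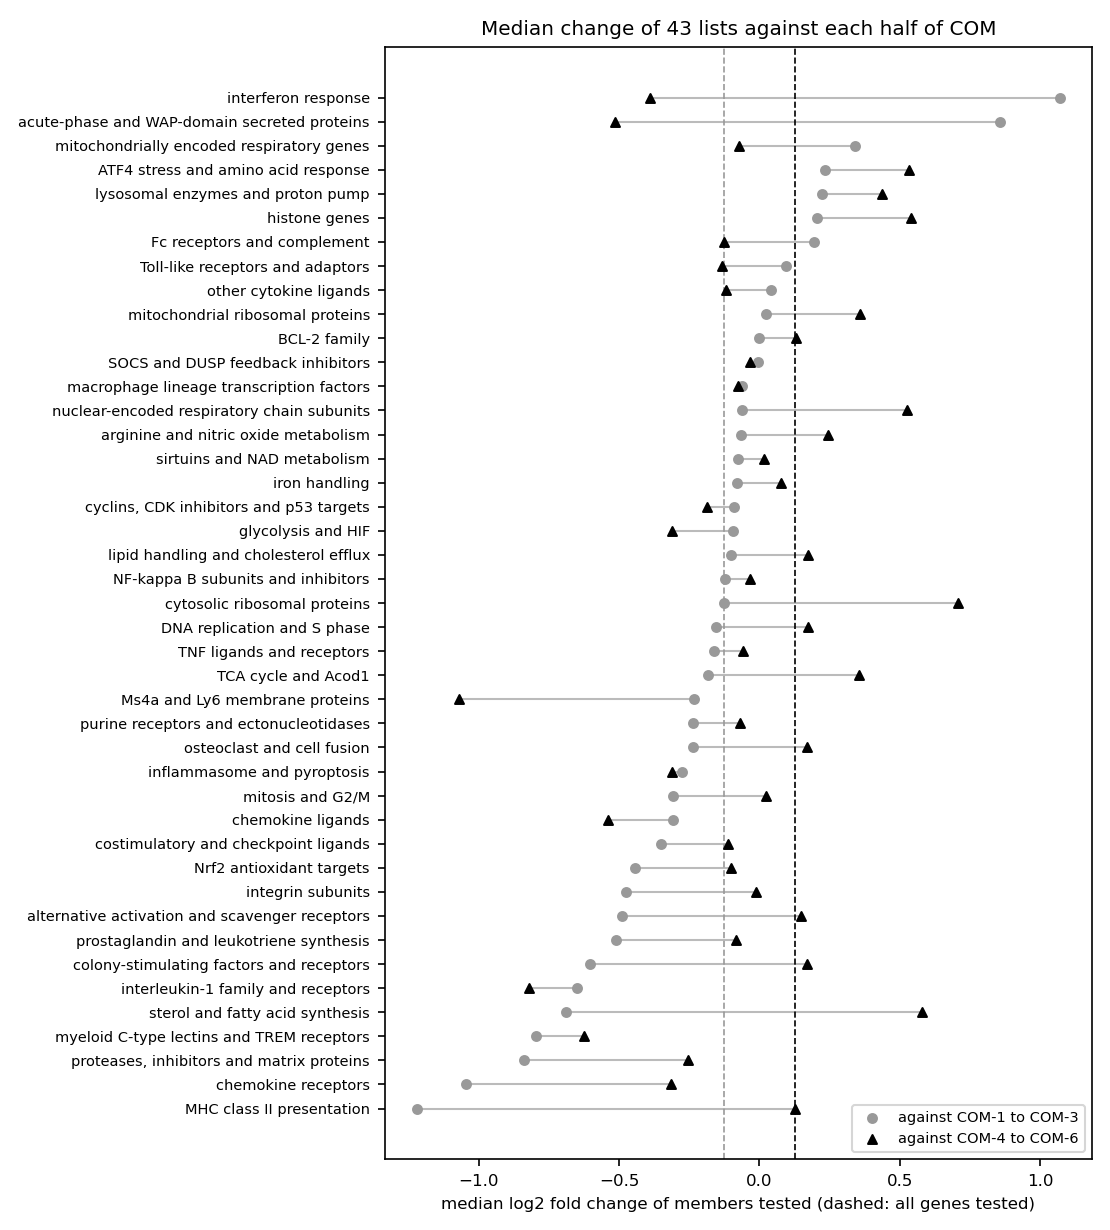
Median log2 fold change of the tested members of 43 gene lists (y axis) against COM-1 to COM-3 (circles) and COM-4 to COM-6 (triangles), with dashed lines at the medians of all genes (-0.13 and 0.13). The interferon response list spans from -0.39 to 1.07, and the interleukin-1 and TREM lists lie below 0 on both sides.

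Genes of the study's own text were mostly not called. Acod1 (also Irg1), whose enzyme makes itaconate from a citric acid cycle intermediate, had 1305, 1393 and 1514 FPKM in COM and 1650.0, 2099.7 and 2153 in COM+Met. All 6 COM+Met values were higher, the mean was 1.46 times that of COM, and the adjusted p was 0.00408 (0.54 ± 0.10 on the log2 scale), under the fold limit. The 2-sided exact permutation p was 0.00216 without adjustment, the smallest that 6 against 6 allows. Every gene whose groups do not overlap receives this value, and 1157 of the genes tested (11.2%) did not overlap. Sirt1, the NAD-dependent deacetylase, had 2.69, 4.14 and 7.34 FPKM in COM and 4.29, 5.07 and 7.24 in COM+Met (log2 fold change 0.30 ± 0.18 (SE), adjusted p = 0.309), with overlapping groups. The succinate dehydrogenase subunits Sdha, Sdhb, Sdhc and Sdhd had log2 fold changes of 0.12, -0.22, 0.16 and 0.25, with adjusted p from 0.407 to 0.585. The sign for Sdha, Sdhc and Sdhd turned in a fit with sample weights. These values against all 6 covered unlike subsets. Against COM-1 to COM-3 the 4 subunits had -0.06, -0.56, -0.14 and -0.09. With COM-6 left out they had 0.23, -0.01, 0.19 and 0.16 against COM-4 and COM-5. Hif1a, the hypoxia factor, had 36.2, 49.1 and 64.0 FPKM in COM and 41.2, 42.9 and 46.1 in COM+Met (log2 fold change -0.13 ± 0.13 (SE), adjusted p = 0.550). Its change was -0.22 against COM-1 to COM-3 and, with COM-6 left out, 0.23 against COM-4 and COM-5. Itgam, or CD11b, was lower in every COM+Met sample (186, 293 and 360.0 against 141, 154 and 159 FPKM, log2 fold change -0.84 ± 0.17 (SE), adjusted p = 0.00722) without reaching 2-fold.

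Arg1, an arginase used as a marker of alternative activation, did not pass the filter. It had 1.30, 0.501 and 0.631 FPKM in COM-1 to COM-3 and 0.762, 0.349 and 0.483 in COM-4 to COM-6. In COM+Met it was listed at 0 in all samples but COM+Met-4 (0.0438 FPKM), without overlap. Its exact permutation p, unadjusted, was 0.00216, the value that any gene without overlap receives. Mrc1, the mannose receptor, and Cd86, a costimulatory ligand, had values in COM+Met between those of the 2 subsets. Mrc1 had 4.89, 5.18 and 4.95, then 1.61, 1.17 and 1.75 FPKM, and 2.38, 2.53 and 2.95 in COM+Met, and Cd86 11.1, 11.4 and 9.48, then 31.9, 28.4 and 43.1, and 18, 18.4 and 20.0. Neither was called against all 6 (-0.10 and -0.04), and both signs turned when single samples were left out. Tlr4, Rela, Ezh2, Adgre1 and the reference gene Gapdh had -0.05, 0.19, -0.43, 0.02 and -0.01, with adjusted p from 0.129 to 0.982, and of these Tlr4, Adgre1 and Gapdh changed sign under some settings. Ezh2 had -0.66 against COM-1 to COM-3 and, with COM-6 left out, 0.10 against COM-4 and COM-5.

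Across 43 gene lists, written by hand with earlier results of these data known, 28 had a called member and 15 had none. Of the 1035 different genes tested in them 73 were called and 28 of these held, beside 2.22% called and 0.714% held of all genes. Since the members were chosen with such knowledge, the difference in shares is a description and no test. In a list of lysosomal enzymes and proton pump subunits 20 of 49 tested members (beside 5.77% of all genes) had an adjusted p below 0.05 and were higher, 2 reached 2-fold (Gpnmb and Naglu) and none held (median 0.35). Naglu, which degrades heparan sulfate, had 14.4, 52.7 and 60.9 FPKM in COM and 83.2, 85.6 and 100.3 in COM+Met and lost its call without COM-3, COM-6 or any COM+Met sample. In the ATF4 stress and amino acid list 17 of 34 were higher and 2 lower at that threshold (beside 5.77% and 7.58% of all genes, median 0.37), and 3 rises and 1 fall were called. Atf5, a transcription factor of that response, had 4.29, 17.1 and 18.1 FPKM in COM and 31.5, 34.3 and 45.0 in COM+Met, with COM-6 the lowest of COM. Like Gdf15 it held, but not without COM-2, COM+Met-1 or COM+Met-2. Trib3, a pseudokinase target of ATF4, was called higher (log2 fold change 1.09 ± 0.25 (SE), adjusted p = 0.0121) and not without COM-6, and Ddit4, an inhibitor of mTORC1, was the fall (log2 fold change -1.06 ± 0.30 (SE), adjusted p = 0.0323), which was lost when any of COM-1 to COM-3 or COM+Met-2 to COM+Met-6 was left out. Histone genes had 3 calls among 20 tested, all higher: Hist1h2bg, Hist1h4k (1.10) and Hist1h2bc (1.01), of which only the first held. Hist1h4k was not called without COM+Met-2, nor Hist1h2bc without COM-3, COM-6, COM+Met-3 or COM+Met-4. Of that list 63 members were below the filter. The 3 medians kept their sign under all 3 other scalings.

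Nrf2 targets and the protease and matrix list had more falls than rises. Of 29 Nrf2 targets 10 had an adjusted p below 0.05, all lower (beside 7.58% of all genes), and 3 were called, of which none held (median -0.18): Nqo1 (-2.87 against COM-1 to COM-3 and -0.80 against COM-4 to COM-6), a quinone reductase, Gsta3 (-1.73 against COM-1 to COM-3 and -0.48 against COM-4 to COM-6), a glutathione transferase, and Gclc (-0.98 against COM-1 to COM-3 and -1.09 against COM-4 to COM-6), the first enzyme of glutathione synthesis. Gclc was not called without COM-6, nor Gsta3 without any of COM-1 to COM-3, COM+Met-4 or COM+Met-5. Of 27 proteases, inhibitors and matrix proteins 8 were lower and 2 higher (median -0.51), with Serpinb2 and Fstl1 holding. Sparc, a matrix glycoprotein, was among the falls (log2 fold change -1.84 ± 0.48 (SE), adjusted p = 0.0224) and lost its call when any of COM+Met-2 to COM+Met-6 was left out. Cd36 and Olr1, scavenger receptors for oxidised lipoproteins, were the 2 called members, both lower, of 19 tested genes of alternative activation and scavenging (log2 fold change -1.41 ± 0.27 (SE), adjusted p = 0.00507, and log2 fold change -1.33 ± 0.30 (SE), adjusted p = 0.0121), and neither held (-0.79 and -0.65 against COM-4 to COM-6). The median of that list was -0.49 against COM-1 to COM-3 and 0.15 against COM-4 to COM-6. Ccr1, a receptor for inflammatory chemokines, fell from 22.4, 29.5 and 37.5 to 8.23, 11.5 and 16.6 FPKM and just missed the limit against COM-4 to COM-6 (-0.95). Car2, a carbonic anhydrase of osteoclasts, missed it in the same way, and without COM-6 or without COM+Met-1 it held. Some other calls of this kind also held once 1 of these samples was left out: S100a8, Slpi, Ltb4r1 and Ass1 without COM-6, and S100a8, Ccr1, Gclc, Ptx3, Tnfsf4, Plet1, Cyp1b1 and Sparc without COM+Met-1.

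Further calls in other lists went both ways. In the 10 lists with a single call it was a rise in 5 and a fall in 5. Ass1, which feeds arginine synthesis, had 266, 368 and 409.6 FPKM in COM and 137, 166 and 179.7 in COM+Met (log2 fold change -1.12 ± 0.12 (SE), adjusted p = 0.000126, -0.97 against COM-4 to COM-6). Slc40a1, the iron exporter ferroportin, went from 5.87, 8.60 and 13 to 2.89, 3.22 and 5.39 FPKM, Itga4, the integrin α4 chain, from 19.9, 39.7 and 41.6 to 13.4, 14.5 and 16, and P2ry13, an ADP receptor, from 22.5, 30.0 and 38.3 to 11.8, 13.7 and 16. The groups did not overlap in these 4 genes, and none of the 4 held with all 12 samples. P2ry13 was not called without COM-2, COM-6 or COM+Met-5. Tlr8, a sensor of single-stranded RNA, Socs2, a feedback inhibitor of growth-hormone signals, and Fosl2, an AP-1 subunit, were lower by 2.16-, 2.75- and 2.49-fold in mean FPKM. Tlr8 was not called without any of COM-1 to COM-3, COM-6 or COM+Met-1, nor Fosl2 without any of COM-1 to COM-3 or COM+Met-2 to COM+Met-6. Batf, another AP-1 family member, and Gadd45g, a stress-induced gene, were higher (1.05 and 1.12), and Batf was not called without COM-1 or COM-2, nor Gadd45g without any sample other than COM-4 and COM-5.

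In 15 lists, with 438 members tested in all, limma called no member. At an unadjusted p below 0.05, 52 members were higher and 48 lower. At an adjusted p below 0.05, 14 were higher and 23 lower, both smaller shares than the 5.77% and 7.58% of all genes. Besides the interferon list, these 15 lists were other cytokine ligands, NF-κB subunits, inflammasome genes, MHC class II presentation, the citric acid cycle, mitochondrially encoded respiratory genes, sterol and fatty acid synthesis, mitosis, DNA replication, prostaglandin and leukotriene synthesis, sirtuins and NAD metabolism, the BCL-2 family, and cytosolic and mitochondrial ribosomal proteins. Their medians ran from -0.71 (MHC class II, 9 genes) to 0.44 (interferon response). Without COM-6 limma called 6 of these members, among them Gbp5 (1.49), H2-Eb1 (-1.02), Bub1b (-1.13), Ptgs1 (-1.33) and Bmf (-1.07). The largest values of these lists over all 12 samples are given next, without a call. Nlrp1b and Naip2, inflammasome sensors, had -0.95 and -0.86 (adjusted p = 0.00127 and 0.000550) and did not overlap between the groups. Rel and Map3k14 of the NF-κB list had -0.74 and -0.56, H2-DMb2 and H2-Eb1 -0.82 and -0.79, and Cd38, an NAD-consuming enzyme, -0.79 (adjusted p = 0.00250). In the citric acid cycle, sterol and fatty acid, mitosis and replication lists the 2 largest values were below 0. The medians of these lists were 0.09, -0.02, -0.14 and 0.01. Pcx and Idh1, which feed and draw on the citric acid cycle, had -0.61 and -0.56, and Scd1 and Me1, of fatty acid synthesis, -1.29 and -0.90. Alox5 and Ptgs1, which start leukotriene and prostaglandin synthesis, had -1.22 and -1.06, the mitotic genes Bub1b and Cenpa -0.93 and -0.85, and the replication genes Lig1 and Mcm4 -0.42 and -0.40. The cytokines Il15 and Il27 had 0.84 and 0.79, Sirt6, a deacetylase, 0.48, and the BCL-2 family members Bmf and Bnip3 -0.83 and -0.65. Of genes for the respiratory chain and ribosomes, mt-Cytb and mt-Nd3 had 0.35 and 0.30, and Rps12, Rplp1, Mrpl12 and Mrpl53 0.78, 0.76, 0.55 and 0.55. Some of these values differed between the subsets. With COM-6 left out, Idh1 had -1.33 against COM-1 to COM-3 and 0.32 against COM-4 and COM-5. In the same fits Alox5 had -2.58 and 0.10, Bub1b -1.84 and -0.06, and Il15 1.88 and -0.22. Me1 (-1.11 and -0.56) and Cenpa (-1.14 and -0.53) were below 0 against both.

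Several of these lists departed from all genes in opposite directions, or against 1 subset only. Sterol and fatty acid synthesis had a median of -0.69 against COM-1 to COM-3 (11 of 37 lower, beside 5.08% of all genes). Against COM-4 to COM-6 its median was 0.58 (5 of 37 higher, beside 0.926% of all genes). Scd1, the stearoyl-CoA desaturase, had 14, 12.8 and 12.1 FPKM, then 0.365, 0.806 and 2.31, and 1.02, 1.16 and 1.31 in COM+Met. Cytosolic ribosomal protein genes had -0.12 and 0.71 (9 of 79 higher against the last 3, beside 0.926% of all genes), and MHC class II genes -1.22 and 0.13. The -0.12 and the 0.13 are close to the shift of all genes, so these 2 lists stood apart against 1 subset each. COM-6 was the lowest COM sample for Rplp1, a ribosomal stalk protein, with 311, 276 and 74.5 FPKM in COM-4 to COM-6 beside 332, 349 and 362 in the first 3 and 408, 424 and 481 in COM+Met. Among lists whose medians lay on one side against both subsets, beyond the shift of all genes, were interleukin-1 genes (-0.65 and -0.82) and TREM receptors and lectins (-0.80 and -0.62) on the lower side, and lysosomal enzymes (0.22 and 0.44), ATF4 genes (0.23 and 0.53) and histones (0.20 and 0.54) on the higher side.

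**Figure D5:**
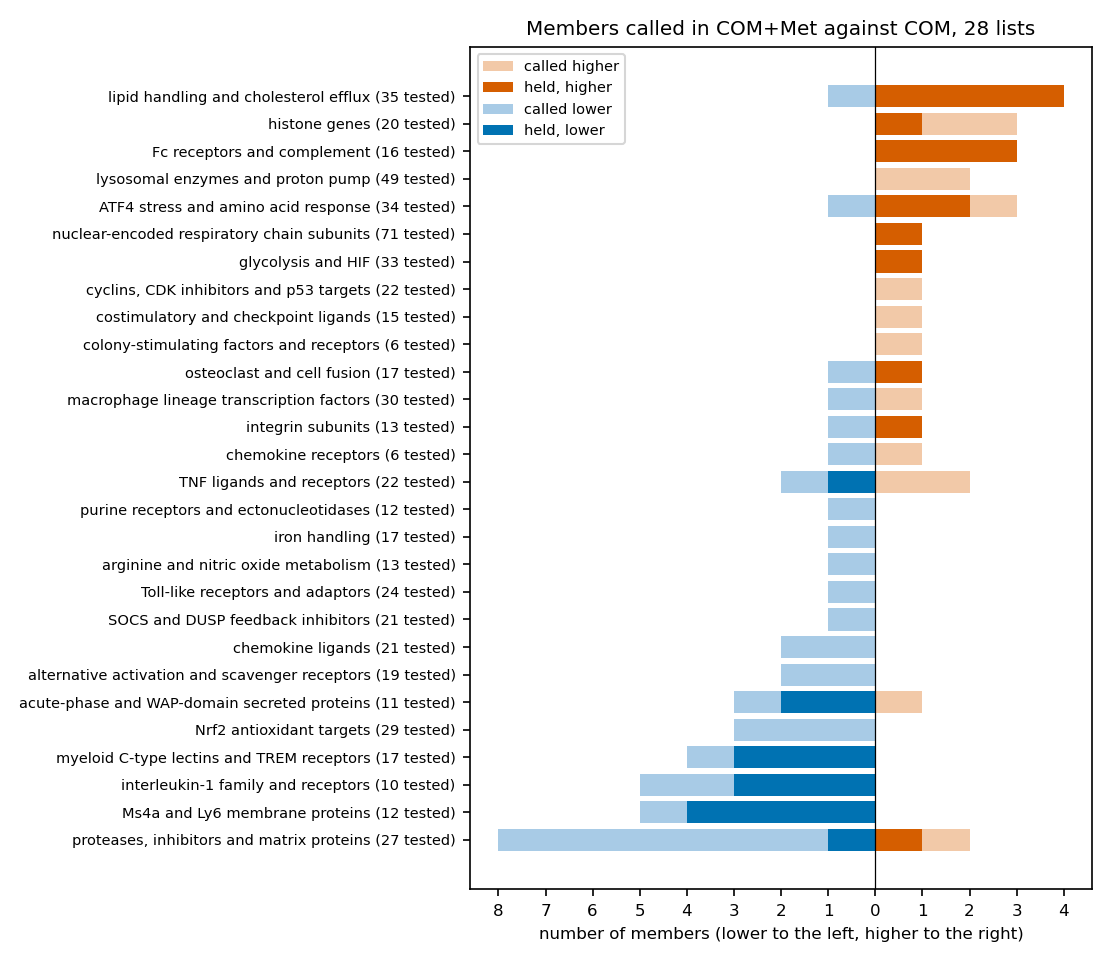
Number of members called in COM+Met against all 6 COM samples (x axis, lower to the left and higher to the right) in the 28 gene lists with a call (y axis), with those that held in dark colour. The lipid list has 4 held rises, and the Ms4a and Ly6 list 4 held falls.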

How the data were processed

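Libraries were prepared with a TruSeq kit from 1 μg of total RNA per sample, and the authors deposited one table of FPKM values for 25926 genes in 18 samples. Bowtie 0.12.2 and 2 mouse builds, mm8 and mm9, appear in the submitters' notes on processing with no stated role, and which program computed FPKM is not given in the sources used here. Sequencing depth behind the values is unknown, so no counting interval is given. The 12 COM and COM+Met samples were compared on log2(FPKM + 1), for genes averaging 1 FPKM or more, with limma 3.58.1 (trend) in R 4.3.3 and Benjamini-Hochberg adjustment over the 10364 genes. A gene was called when it passed 0.05 on the adjusted p and changed at least 2-fold. The fit was repeated against COM-1 to COM-3 and against COM-4 to COM-6, with 9 samples each. A two-sided exact permutation test of 6 against 6 was run for each named gene, without adjustment. Its p is printed only for Acod1 and for Arg1, which was below the filter. The fit was tested on simulated data. Tables and plots were made in Python 3.11.15 with pandas 2.3.3, numpy 2.4.6, scipy 1.17.1 and matplotlib 3.10.9.

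Named genes were the 12 largest rises and 12 largest falls among Ensembl genes that held without overlap, ranked by the smaller of the 2 subset changes. Genes of the study's text and primer lists, the 4 largest called members of each gene list (the 2 largest values where none was called), the 6 largest calls that did not hold, and the promoters of the first 3 rises and falls were also named. The remaining genes that held, and 4 with opposite calls, were added after their values were seen. The samples, the gene lists and these rules were chosen with earlier results of these data known. Alternatives were other pseudocounts (0.1 and 5), no filter or one of 5 FPKM, equal sums, size factors, quantile normalisation, a replicate block, sample weights, joint fits of 12 or 18 samples, no fold limit in the fits of 9 samples, and leaving out each sample. Leaving out COM-6 and COM+Met-1 together was chosen after seeing the data. Promoter sequences were those of RefSeq (GRCm38.p6), found for 7975 of 9940 tested genes with an Ensembl identifier.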

Additional observations from a re-analysis of the deposited data

Results flagged for a closer look

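In 58 of 320 groups of 6 samples (18.1%), the COM and COM+Met values of 159 named genes and the summed FPKM of each group, 1 sample lay apart from the other 5 by Dixon's criterion on log2(FPKM + 1) at its 95% level. Chance gives about 1 in 20 for a single group of normal values. These groups share the same libraries, and many of the genes were named by these values, so the 18.1% is a description and no test. COM-6 was the sample apart in 19 of the COM groups. It was the lowest for Fabp5 at 80.1 FPKM, Ankrd24 at 6.38, Sdhc at 10.0, Sdhd at 26.8, Rela at 30.7, Hp at 335, Ass1 at 266, Naglu at 14.4, Atf5 at 4.29, Sirt6 at 4.87, Rplp1 at 74.5, Mrpl12 at 7.47, Mrpl53 at 2.11, Dpp7 at 5.71 and Ckb at 3.89. It was the highest for Adgb at 46.9 FPKM, Tlr4 at 21.9, mt-Cytb at 2600.0 and Gclc at 40.0.

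COM+Met-1 was the sample apart in 37 of the COM+Met groups. It was the lowest for genes that were higher in COM+Met, or not called, at 33.1 FPKM for Fstl1, 1650.0 for Acod1, 28 for Slamf8, 78.0 for Apoe, 5.08 for C1qb, 1.31 for C1qa and 2.40 for C1qc. For Tlr8, called lower, it was also the lowest, at 5.18 FPKM. It was the highest at 12.2 FPKM for Arhgap22, 59.3 for Il1f9, 6.12 for Tnfrsf9, 23.4 for U90926, 55.7 for Rela, 198 for Ccrl2, 25.5 for Il15, 3.39 for Tnfsf4, 122 for Csf1, 7.87 for Map3k14, 294 for Gbp5 and 282 for Slpi. The same was seen at 1.16 FPKM for Sparc, 32.3 for Nqo1, 15.3 for Gclc, 5.39 for Slc40a1, 572 for Ly6i, 8.49 for Plet1, 8.85 for Cyp1b1, 1.04 for Serpinb9b, 1.67 for Bgn, 8.75 for Cd247, 7.31 for Car4 and 34.7 for Ifitm1. Clu at 7.45 FPKM, Chil1 at 1.92, Dcn at 0.561, Col1a2 at 1.15 and Ctla2b at 25.9 completed this set. Elsewhere, COM+Met-4 was the highest for Arg1 at 0.0438 FPKM and COM+Met-6 the lowest for mt-Nd3 at 105 FPKM.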

How the results depend on the processing

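The 230 calls against all 6 COM samples became 370 with a pseudocount of 0.1, 90 with one of 5 and 719 with sample weights, and 182 to 300 when 1 sample was left out. Of the 762 against COM-1 to COM-3, 353 were made with a pseudocount of 5 and 497 with a filter of 5 FPKM (752 to 780 with 1 sample out). The 229 against COM-4 to COM-6 became 450 with a pseudocount of 0.1 and 101 with one of 5, and ranged from 174 (without COM-6) to 469 (without COM-4). The 74 genes that held became 155 with a pseudocount of 0.1, 24 with one of 5, 49 with a filter of 5 FPKM and 193 with no fold limit in the fits of 9 samples (59 to 97 with 1 sample out). Low values set the effect of the pseudocount by construction; for the sample weights and single samples the cause was not tested.

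Same-numbered samples did not resemble each other: 0 of 6 pairs had deviations from their group means correlated above 0.1 (r from -0.225 to 0.0341). In the same check 0 COM samples were closest to their own number. The COM deviations include the difference between the 2 subsets, so the check does not settle whether samples were prepared in pairs. With a replicate block there were 202 calls against all 6 and 754 against COM-1 to COM-3, but 0 against COM-4 to COM-6 (limma, 1660 genes at an unadjusted p below 0.05) and so 0 that held, with 2 residual degrees of freedom in each fit of 9 samples.

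Of 80 called named genes none turned under any alternative run, and 46 lost their call under at least 1. Of 50 uncalled ones 11 changed sign, and 23 gained a call with sample weights (Ccl7 at 2.39, Tgtp1 at 2.10, Ifi206 at 1.90 and Nos2 at 3.52), 5 without COM-6 and 3 without COM-4. In the 15 lists with no call, 57 members were called with sample weights, and over all 43 lists 167 of 989 counts moved by over 1.5 times. With sample weights Sdha had -0.0505, Sdhc -0.132, Sdhd -0.0797, Tlr4 0.0241, Cd86 0.6903 and Gapdh 0.221. With COM-6 and COM+Met-1 left out together Sdhc had -0.0158, Tlr4 0.0255 and Cd86 0.1669. Adgre1 had -0.023 with equal sums, Cd86 0.001 and Gapdh 0.0279 with quantile normalisation, and Ccl7 -0.0634 and Tgtp1 -0.0251 with a pseudocount of 5. Leaving out 1 sample gave -0.0124 to 0.2313 for Sdhc, -0.0751 to 0.0429 for Tlr4, -0.007 to 0.0714 for Adgre1, -0.2277 to 0.187 for Cd86, -0.2653 to 0.0362 for Mrc1, -0.1279 to 0.1117 for Gapdh, -0.0556 to 0.9634 for Ccl7, -0.0828 to 0.7425 for Tgtp1 and -0.136 to 0.7428 for Ifi206. All other settings kept the 4 counts within 1.5 times, but a like count did not mean the same genes. With sample weights 80 genes held (13 higher, 67 lower), and 53 of the 74 were among them. Against COM-4 to COM-6 that setting gave 201 calls (42 higher, 159 lower), with 136 of the 229 among them. Depth is unknown, so low values carry an error that cannot be given, and close gene copies, unspecified cultures and the spread within COM limit every comparison.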
